A study of Mus musculus with 20 samples.

Results

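The 10 genes described here are Ccdc80, Dcn, Lum, Fbn1, Fbln1, Fn1, Postn, Npnt, Mfap5 and Pdgfra, which were the rows with these symbols among the 24062 gene symbols of 20 RNA-seq libraries. The first 9 encode secreted proteins of the extracellular matrix that are not collagens, and Pdgfra encodes a receptor commonly used to mark fibroblasts. The genes were chosen by name and with earlier results of these libraries in view. Ccdc80 in particular was selected on its low values at ZT7 against ZT1, so that its values are given as a description and without a test. Zeitgeber time (ZT) is the number of hours after lights on. The libraries were made from lymphatic endothelial cells of mouse ear skin, sorted as CD31+podoplanin+ cells. The mice were wild type, of the strain C57BL/6 by the labels and C57BL/6N males by the study's methods, aged 56 days, kept in a light–dark cycle and given no treatment, and they were sampled in the morning (ZT1), at day (ZT7), in the evening (ZT13) and at night (ZT19). There were 5 libraries at each time point. Each library pooled the ears of a pair of mice, so that the spread between libraries is the spread between pools. The comparison asked whether these genes differed with the time of day.

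Fibroblasts of the dermis make most of the fibrous matrix of the skin. Decorin (Dcn) and lumican (Lum) are small leucine-rich proteoglycans, whose protein cores bind collagen fibrils and regulate their assembly. Fibrillin-1 (Fbn1) forms the microfibrils on which elastic fibres are built, and fibulin-1 (Fbln1) and the microfibril-associated protein Mfap5 are parts of the same structures. Fibronectin (Fn1), periostin (Postn) and nephronectin (Npnt) are adhesive proteins that cells bind through integrins. Ccdc80 is a secreted protein found in the matrix. Endothelial cells make some of these proteins themselves, fibronectin among them.

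The genes lie on 8 chromosomes (build GRCm38, GENCODE M21). Ccdc80 lies on the plus strand at chr16:45093402-45128077, Fbn1 on the minus strand at chr2:125300594-125507993, Fbln1 on the plus strand at chr15:85205949-85286535 and Fn1 on the minus strand at chr1:71585520-71653200. Postn lies on the plus strand at chr3:54361109-54391037, Npnt on the minus strand at chr3:132881745-132950291, Mfap5 on the plus strand at chr6:122505845-122529290 and Pdgfra on the plus strand at chr5:75152292-75198215. Dcn (chr10:97479609-97518143) and Lum (chr10:97565128-97572703) lie on the same strand with 46984 bases between them. The next protein-coding genes on that strand are Kera and Epyc, which encode further proteoglycans of the same family and had a read in only 10 of 20 libraries each. Fbn1, Fn1, Npnt and Pdgfra overlap other annotated genes, and the library kit does not mark strand, so that reads from overlaps on opposite strands cannot be told apart.

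RefSeq promoter windows (GRCm38.p6) were given for 5 of the 10 genes, Fbn1, Fbln1, Postn, Npnt and Pdgfra. The 250 bases before the start are shown for Npnt, which had the lowest unadjusted p of the 9 tested genes between ZT1 and ZT7, and for Fbln1 and Pdgfra, whose values were correlated within the time points. Each is printed 5′ to 3′ on the strand of its gene, and none overlaps an annotated exon. Capitals mark 3 motifs known from the circadian clock, searched on both strands, namely the E-box CACGTG, the D-box TTATGTAA with its reverse complement TTACATAA, and the half-site AGGTCA of ROR and REV-ERB receptors with its reverse complement TGACCT. The Npnt window is chr3:132950292-132950541 on the minus strand, the Fbln1 window is chr15:85205699-85205948 on the plus strand and the Pdgfra window is chr5:75152001-75152250 on the plus strand.
Npnt: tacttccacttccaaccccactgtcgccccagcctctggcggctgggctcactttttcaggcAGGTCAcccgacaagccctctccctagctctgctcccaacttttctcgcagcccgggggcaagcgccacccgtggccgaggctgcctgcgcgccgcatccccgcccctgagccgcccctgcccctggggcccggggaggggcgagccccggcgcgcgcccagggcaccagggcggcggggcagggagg
Fbln1: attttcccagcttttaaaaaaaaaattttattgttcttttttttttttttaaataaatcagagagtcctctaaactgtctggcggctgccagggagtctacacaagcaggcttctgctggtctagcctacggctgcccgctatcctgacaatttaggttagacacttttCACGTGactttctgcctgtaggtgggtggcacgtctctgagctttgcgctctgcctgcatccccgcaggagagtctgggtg
Pdgfra: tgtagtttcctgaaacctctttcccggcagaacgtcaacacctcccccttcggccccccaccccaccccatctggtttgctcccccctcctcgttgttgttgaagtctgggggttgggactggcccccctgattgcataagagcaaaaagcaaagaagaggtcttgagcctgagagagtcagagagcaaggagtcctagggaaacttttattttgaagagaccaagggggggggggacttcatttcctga
The Npnt window holds 1 half-site and the Fbln1 window 1 E-box, while none of the 3 motifs is in the Pdgfra window. Among the 32851 windows of the table, 6.02% hold the E-box, 0.819% the D-box and 14.0% the half-site in their 250 bases before the start. The matches describe these letters and were not tested for binding.

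Library depth and purity set the frame for these genes. The libraries held between 4475111 and 42002363 reads on genes. The share of reads on genes was 20.2% to 29.5% at ZT1, 12.7% to 62.3% at ZT7, 20.1% to 79.9% at ZT13 and 35.0% to 81.6% at ZT19. At ZT7 replicate 2 (62.3%) and at ZT13 replicate 5 (79.9%) stood apart from their groups. Genes with at least 1 read numbered 19055 to 21525 in the libraries of ZT1, 16147 to 21540 in those of ZT7, 13309 to 21697 in those of ZT13 and 12477 to 18768 in those of ZT19. The lymphatic endothelial markers were present in all libraries, with Prox1, the transcription factor of lymphatic identity, between 1276 and 4490 normalized counts. Markers of other skin cells were present as well. A summed list of 12 keratinocyte genes reached 39842 to 76398 normalized counts at ZT1, 65601 to 182000 at ZT7, 13072 to 35478 at ZT13 and 99430 to 185320 at ZT19, and it stood beside 50554 to 121520 for the list of 11 lymphatic genes.

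In proportion to all reads the genes were a small group. Together they took 842 to 2049 reads per 1000000 reads on genes (RPM) at ZT1, 437 to 914 at ZT7, 403 to 1417 at ZT13 and 247 to 1477 at ZT19, and the ranges of the 4 time points overlapped. Levels between genes were compared as normalized counts per kilobase of exon, averaged over the 20 libraries. Dcn was the highest of the 10 at 511 ± 426 (SD, n = 20), above 94.6% of the 18260 tested genes with a known exon length. Ccdc80 (250.1 ± 201) and Fn1 (249 ± 99.6) followed at nearly the same level. Lum (139 ± 122), Fbn1 (119 ± 73.4) and Npnt (83.5 ± 81.5) lay in the middle. Postn (26.0 ± 23.4), Fbln1 (21.2 ± 16.2) and the fibroblast receptor Pdgfra (10.5 ± 7.77) were low, and Mfap5 was the lowest at 4.35 ± 7.66, above only 7.82% of these 18260 genes. The SDs were large against these means, and neighbours in this order did not differ beyond their spread. All 10 genes passed the filter on low counts, as did 19209 of the 24062 genes.

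**Figure D1:**
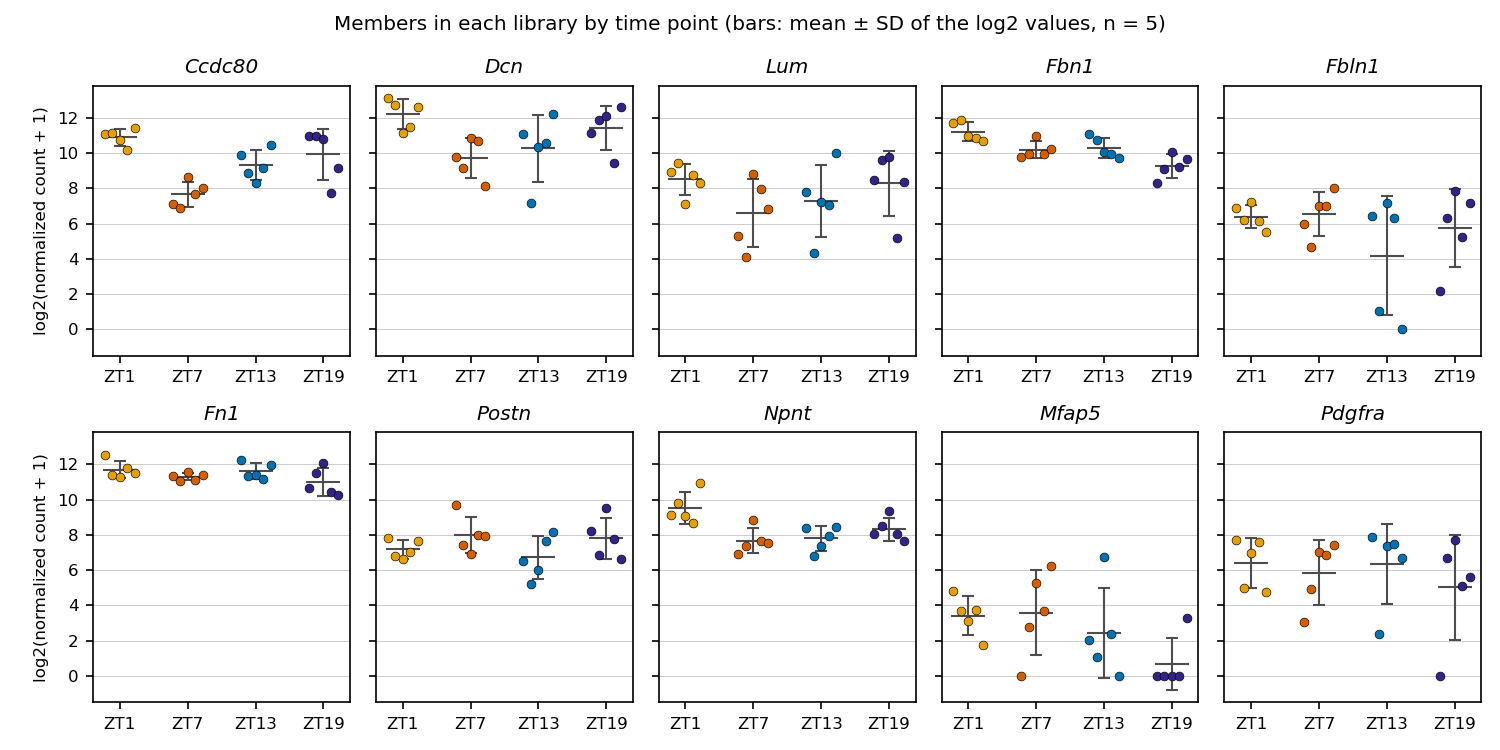
Values of the 10 genes in each of the 20 libraries, as log2(normalized count + 1), by time point; points are libraries and bars are the mean ± SD (n = 5). Dcn did not overlap between ZT1 and ZT7, as 1.17% of all genes did not with ZT1 higher, nor did Ccdc80, which was selected on that contrast; Mfap5 had no read in 4 of the 5 libraries at ZT19.

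Ccdc80 was measured at 2205, 2236, 1684, 1144 and 2744 normalized counts in the 5 libraries of ZT1. At ZT7 it was at 139, 117, 402, 202 and 259. At ZT13 it was at 949.6, 474, 309, 573 and 1395, and at ZT19 at 2036, 2029, 1806, 213 and 559. Every library of ZT7 was below every library of ZT1, the ZT13 libraries overlapped slightly with those of both, and ZT19 was split between 3 high libraries and 2 low ones. The means were 2003 ± 609 at ZT1, 1328 ± 874 at ZT19, 740.2 ± 435 at ZT13 and 224 ± 114 at ZT7 (SD, n = 5). The fitted log2 fold change against ZT1 was -3.17 (SE 0.52) at ZT7, -1.43 (SE 0.49) at ZT13 and -0.59 (SE 0.48) at ZT19. From ZT7 the fitted value was higher by 1.73 (SE 0.50) at ZT13 and by 2.58 (SE 0.51) at ZT19. A curve with a period of 24 h placed the peak of Ccdc80 at ZT 21.0 with a log2 amplitude of 1.47.

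The 9 other genes were tested in the fit over all genes, in which edgeR's quasi-likelihood test was adjusted by Benjamini-Hochberg over the 19209 genes. Among the 4 time points, 0 of the 9 genes passed an adjusted p of 0.05, where 0.422% of all genes did. At an unadjusted p under 0.05 there were 3 of the 9, Dcn, Fbn1 and Npnt, against 15.7% of all genes. Fbn1 (adjusted p = 0.0506) and Npnt (0.0688) were close to the threshold, and Dcn stood at 0.197. The other 6 had adjusted p-values of 0.461 to 0.955. DESeq2 called Fbn1 (adjusted p = 0.000857) and Npnt (0.017) among the 4 time points, where it called 2.96% of all genes, and it did not call the other 7. Of the 9 tested genes, 4 had their highest mean at ZT1 (Dcn, Fbn1, Fn1 and Npnt), which was the highest time point of 27.2% of the genes tested.

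Among the proteoglycans, Dcn was measured at 8845, 6905, 2292, 2882 and 6269 normalized counts at ZT1. At ZT7 it was at 889.7, 576, 1859.7, 1666 and 277, at ZT13 at 2194, 141, 1277, 1507 and 4793, and at ZT19 at 2288, 3714, 4423, 681 and 6231. The libraries of ZT1 all lay above those of ZT7, which was also so for 1.17% of all genes, and all other pairs of time points overlapped. The log2 fold change of Dcn from ZT1 was -2.37 (SE 0.65, unadjusted p = 0.00113, edgeR's adjusted p = 0.684) at ZT7 and -1.45 (SE 0.63, unadjusted p = 0.0291) at ZT13. From ZT7 to ZT19 it was 1.72 (SE 0.64, edgeR's adjusted p = 0.145). Without replicate 5 of ZT13, the change from ZT1 to ZT13 was -2.09.

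Lum, the neighbour of Dcn, was lower in level and had its highest means at ZT19 and ZT1. It was measured at 485, 679, 138, 435 and 311 normalized counts at ZT1 and at 38.1, 16.01, 453, 244 and 114 at ZT7. At ZT13 it was at 220.4, 19.1, 149, 134 and 1010.3, and at ZT19 at 354, 783, 879, 34.8 and 326. The groups overlapped in every pair, and the change from ZT1 to ZT7 was -1.26 (SE 0.82, unadjusted p = 0.135 in edgeR). Without replicate 3 of ZT7, the highest library of that group, it was -2.01. The libraries in which Lum was lowest at ZT1 (replicate 3), at ZT13 (replicate 2) and at ZT19 (replicate 4) were also those in which Dcn was lowest, whereas at ZT7 Lum was lowest in replicate 2 and Dcn in replicate 5.

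Fbn1, the main protein of the microfibrils, had its highest mean at ZT1 and its lowest at ZT19, which was the lowest time point of 46.0% of the genes tested. It was measured at 3299, 3743, 2015, 1886 and 1667 normalized counts at ZT1 and at 892, 979, 2018, 999.6 and 1224 at ZT7. At ZT13 it was at 2171, 1706, 1051, 969 and 852, and at ZT19 at 311, 553, 1086, 580.4 and 814. The means were 2522 ± 934 at ZT1, 1349.8 ± 566 at ZT13, 1223 ± 461 at ZT7 and 669 ± 294 at ZT19 (SD, n = 5). Neighbours in this order overlapped, whereas every library of ZT1 was above every library of ZT19, as was the case for 6.17% of all genes. The log2 fold change from ZT1 to ZT19 was -1.92 (SE 0.37, unadjusted p = 2.19e-05, edgeR's adjusted p = 0.0689), and Fbn1 ranked 4 of 19209 genes by p in this pair. DESeq2 called Fbn1 in this pair and from ZT7 and ZT13 to ZT19, where it called 10.3%, 10.8% and 9.24% of all genes. Leaving out replicate 1 or 5 of ZT13 or replicate 3 of ZT19 also brought the edgeR test of Fbn1 among the 4 time points past the threshold, with adjusted p-values of 0.0476, 0.0434 and 0.0416. Without replicate 2 of ZT1 it was 0.140.

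The median log2 fold change of the genes tested was -0.39 from ZT1 to ZT19, -0.20 from ZT7 and -0.22 from ZT13, and it lay between -0.07 and 0.05 in the other pairs. Among the 15341 genes with at least 10 counts in 10 libraries, the medians to ZT19 were 0.03, 0.03 and 0.02; that filter also changed the scaling factors. With library size alone for scaling, the median from ZT1 to ZT7 was 0.43. Taken relative to the median of all genes, the change of Fbn1 from ZT1 to ZT19 was -1.53, and it ranged from -1.80 to -1.31 over the scalings and filters tried. For Ccdc80 from ZT1 to ZT7 the relative change was -3.21 (range -3.26 to -3.08), for Dcn it was -2.41 (-2.46 to -2.23) and for Npnt it was -1.98 (-2.03 to -1.87). The relative change of Ccdc80 from ZT1 to ZT19 was near 0 (-0.20, range -0.36 to 0.01).

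The other proteins of the elastic fibre and fibrillar scaffold were low and scattered. Fbln1 was measured at 45.5 to 149 normalized counts at ZT1 and at 24.6 to 256 at ZT7. At ZT13 it was at 84.5, 1.06, 143, 77.8 and 0, and at ZT19 at 3.57, 79.6, 232, 37.4 and 144. Replicate 5 of ZT13, the deepest library but with only 13309 genes detected, held 0 reads of Fbln1, which allows up to 0.0714 RPM by a floor of 3 reads. Mfap5 had 210 reads in all 20 libraries together. Its values were 2.39 to 26.6 normalized counts at ZT1, 0 to 73.3 at ZT7, 0 to 105 at ZT13, and 0, 0, 0, 0 and 8.84 at ZT19. The 4 libraries at 0 allow up to 0.0833, 0.105, 0.199 and 0.278 RPM, and all reads of Mfap5 at ZT19 came from replicate 5. The reads are PCR products without molecular identifiers, so such floors cover counting error only.

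Of the adhesive proteins, Npnt was measured at 556, 887, 532, 401 and 1944 normalized counts at ZT1. At ZT7 it was at 120.4, 162, 461, 203 and 185, at ZT13 at 339.7, 110.3, 167, 247 and 349, and at ZT19 at 268, 358, 641, 259 and 199. All libraries of ZT1 were above those of ZT13, which held for 0.984% of all genes, and 1 library each of ZT7 and ZT19 reached into the range of ZT1. The log2 fold change from ZT1 was -1.94 (SE 0.48, unadjusted p = 0.00036) at ZT7, -1.83 (SE 0.47, unadjusted p = 0.000617) at ZT13 and -1.32 (SE 0.47, unadjusted p = 0.00833) at ZT19, with adjusted p-values of 0.622, 0.359 and 0.110 in edgeR. Npnt ranked 8 of 19209 genes by p from ZT1 to ZT7. Among the 4 time points the adjusted p of Npnt was 0.0416 without replicate 3 of ZT7 and 0.0497 without replicate 4 of ZT19. Without replicate 5 of ZT1, the highest library, it was 0.288, and the change from ZT1 to ZT7 was -1.41.

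Fn1, the most abundant of the adhesive genes, overlapped between all time points (adjusted p among the 4 = 0.648 in edgeR). It was measured at 2483 to 5916 normalized counts at ZT1, 2155 to 3038 at ZT7, 2265 to 4864 at ZT13 and 1206 to 4398 at ZT19. The log2 fold change from ZT1 to ZT7 was -0.47 (SE 0.37) and that from ZT1 to ZT19 was -0.60 (SE 0.37). Postn, a matricellular protein, had its highest mean at ZT7, with 96.2 to 226 normalized counts at ZT1, 118 to 814 at ZT7, 36.1 to 283 at ZT13 and 97.8 to 747 at ZT19. All pairs of groups overlapped for Postn as well. The change of Postn from ZT1 to ZT7 was 1.07 (SE 0.62, unadjusted p = 0.0974 in edgeR), and without replicate 1 of ZT7, the library at 814, it was 0.37.

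The receptor Pdgfra varied more within the time points than between them. It was measured at 211, 30.2, 125, 192 and 26.3 normalized counts at ZT1 and at 7.37, 29.2, 131, 113 and 167 at ZT7. At ZT13 it was at 229, 4.24, 163, 177 and 103, and at ZT19 at 0, 101, 208, 33.5 and 47.0. The order of the means was ZT13 (135 ± 86.0), ZT1 (117 ± 87.0), ZT7 (89.6 ± 68.4) and ZT19 (78.0 ± 81.4), and all groups overlapped. Replicate 1 of ZT19, with 36022409 reads on genes and the fewest genes detected (12477), held 0 reads of Pdgfra, a limit of 0.0833 RPM, while Ccdc80 was at 2036 and Dcn at 2288 in the same library. The part of the number of genes detected in these zeros was not tested. Over the 4 time points, Pdgfra had an adjusted p of 0.955 in edgeR's test.

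**Figure D2:**
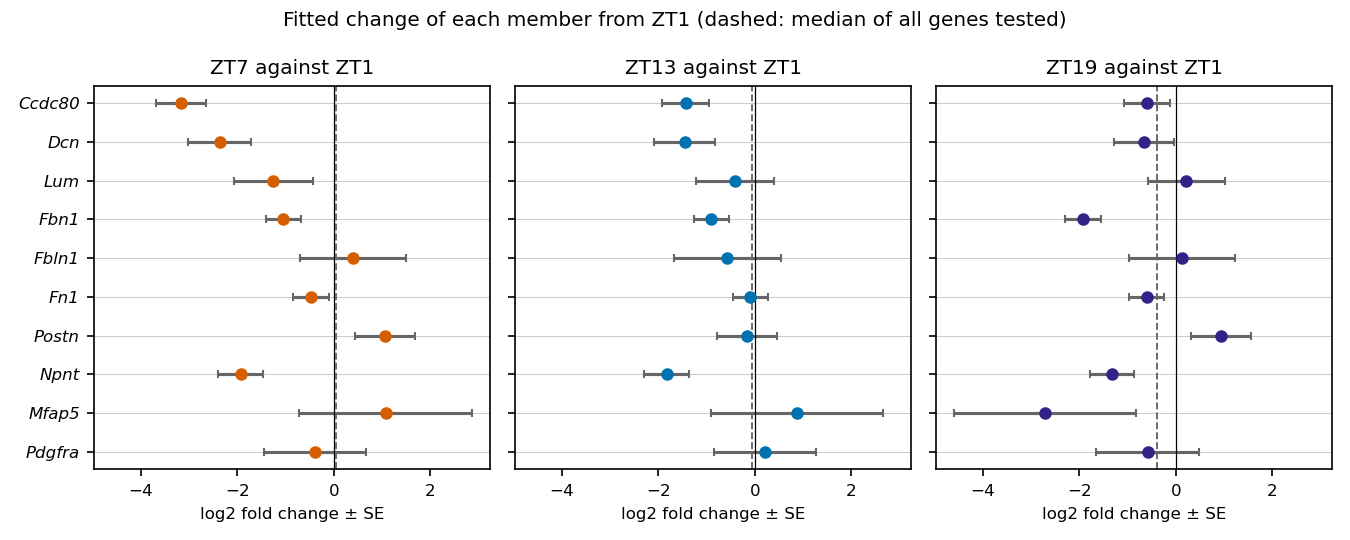
Fitted log2 fold change of each gene at ZT7, ZT13 and ZT19 against ZT1, with its standard error; the dashed line is the median of all 19209 genes tested. Ccdc80, Dcn and Npnt lie furthest below the line at ZT7 and Fbn1 at ZT19 among the genes with standard errors under 1, and the errors of Fbln1, Mfap5 and Pdgfra span the line at ZT7.

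By pair of time points, 0 of the 9 tested genes passed the adjusted threshold of edgeR in any pair. Among all genes, 0.00521% passed between ZT1 and ZT7, 0.0208% between ZT1 and ZT13, 0.0156% between ZT1 and ZT19, 0.0937% between ZT7 and ZT13, 0.0156% between ZT7 and ZT19 and 0.588% between ZT13 and ZT19. At an unadjusted p under 0.05, 3 of the 9 were lower at ZT7 than at ZT1 (Dcn, Fbn1 and Npnt), where 4.97% of all genes differed in either direction. The same 3 were lower at ZT13 than at ZT1, where 5.37% of all genes differed. Fbn1 and Npnt were lower at ZT19 than at ZT1, against 21.6% of all genes. None of the 9 had such a p between ZT7 and ZT13, where 2.59% of all genes did. Dcn was higher and Fbn1 lower at ZT19 than at ZT7, against 19.7% of all genes, and Fbn1 was lower at ZT19 than at ZT13, against 19.2%. With DESeq2 as the tool, Fbn1 and Npnt passed the adjusted threshold between ZT1 and ZT19, and Fbn1 alone between ZT7 and ZT19 and between ZT13 and ZT19, where 10.3%, 10.8% and 9.24% of all genes passed. DESeq2 called 0 of the 9 between ZT1 and ZT7, between ZT1 and ZT13 and between ZT7 and ZT13, against 0.0677%, 0.333% and 0.416% of all genes. The pairs share libraries, and their values are therefore not independent.

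No tested gene had a 24-h rhythm by the adjusted p of edgeR (0 of 9), against 0.0312% of all genes, and 3 of the 9 had an unadjusted p under 0.05, against 9.23%. These were Npnt, with a log2 amplitude of 0.96 and a peak at ZT 23.8 (adjusted p = 0.273), Dcn, with 1.13 and a peak at ZT 21.7 (0.439), and Fbn1, with 0.63 and a peak at ZT 3.93 (0.529). DESeq2 called 0 of the 9 as well, against 0.39% of all genes. A rhythm fitted to 4 time points rests on a single cycle.

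Some of the genes varied together over the 20 libraries. Pearson's r of the log2 normalized counts was 0.83 for Dcn and Lum, 0.72 for Dcn and Npnt and 0.63 for Lum and Npnt. Two-sided permutation tests with 100000 resamples gave p = 1e-05, the smallest they can give, 0.00033 and 0.00273. Adjusted over all 45 pairs these were 0.00045, 0.00297 and 0.0205, but that family holds the 9 pairs of Ccdc80, which was selected on its values. Adjusted over the 36 pairs without Ccdc80, as in the values that follow, they were 0.00036, 0.00594 and 0.0328, and these 3 pairs passed by Pearson's r in both families. With the time-point means taken out, r was 0.80 for Dcn and Lum (permutation p within time points 0.00099, adjusted 0.0283), 0.55 for Dcn and Npnt (adjusted 0.114) and 0.59 for Lum and Npnt (adjusted 0.0934). Without the 2 libraries farthest from the median of the first gene, r was 0.84, 0.68 and 0.53.

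By Spearman's rho 5 of the 36 pairs passed. These were Dcn and Lum (rho = 0.82, permutation p = 2e-05, adjusted 0.00072), Dcn and Npnt (0.80, 6e-05, 0.00108), Lum and Npnt (0.71, 0.0006, 0.0072), Fbln1 and Pdgfra (0.62, 0.0039, 0.0308) and Fn1 and Pdgfra (0.615, 0.00428, 0.0308). Over the 45 pairs there were 7, with Lum and Fn1 (rho = 0.57) and Fbn1 and Mfap5 (0.57) in addition. Fbln1 and Pdgfra had a Pearson's r of 0.60 over all libraries (permutation p = 0.00964, adjusted 0.0694). With the time-point means taken out, r was 0.72 (permutation p = 0.00157, adjusted 0.0283), and r without the 2 farthest libraries was 0.83. Fn1 and Pdgfra had r = 0.52, and 0.46 within time points (permutation p 0.02 and 0.101, adjusted 0.101 and 0.315). Fbn1 and Fn1 had r = 0.58, and 0.40 within time points (permutation p 0.00799 and 0.149, adjusted 0.0694 and 0.326). Postn had r of -0.38 (with Mfap5) to 0.18 (with Dcn) with the other 8 tested genes over all libraries, and none passed. With median-of-ratios size factors in place of TMM, 8 of the 36 pairs passed, and r was positive in all 8. All of these values share the library, its depth and its scaling. The share of all pairs of genes that would pass was not computed, so that these counts have no background beside them.

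**Figure D3:**
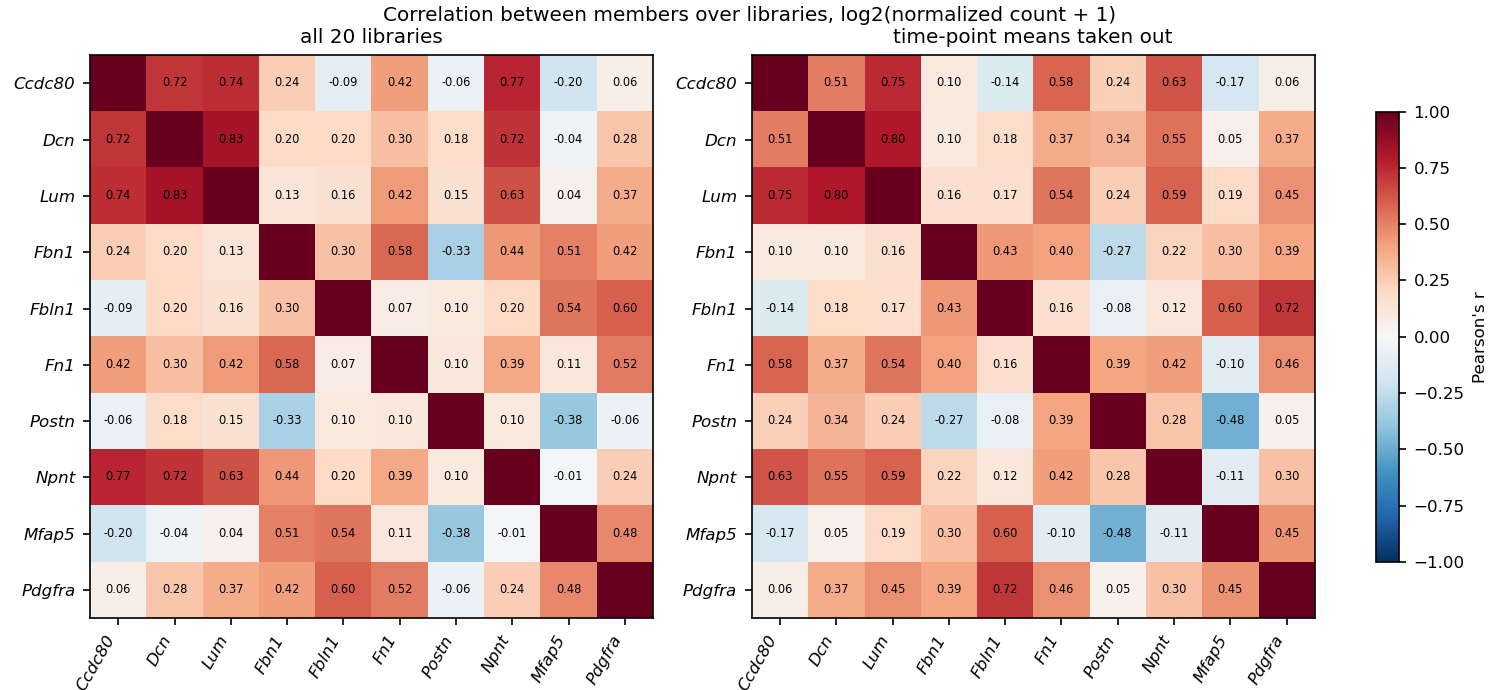
Pearson's r between the 10 genes over the 20 libraries, from log2(normalized count + 1), for all libraries (left) and with the time-point means taken out (right). Ccdc80, Dcn, Lum and Npnt have r of 0.63 to 0.83 with each other at the left, whereas Ccdc80 has r of 0.06 with Pdgfra.

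Ccdc80 itself, described without a test, was closest among the 10 genes to Npnt (r = 0.77, 0.63 within time points), Lum (0.74 and 0.75) and Dcn (0.72 and 0.51). Its r with Pdgfra was 0.06, with Fbln1 -0.09 and with Mfap5 -0.20. Among the r of Ccdc80 with 10712 other genes, those with Npnt, Lum and Dcn were above 99.9%, 99.8% and 99.8%. Those with Pdgfra, Fbln1 and Mfap5 were above 56.1%, 32.5% and 17.1%. Among 10712 other genes with a mean of at least 100 normalized counts, the 5 with the most similar values over the 20 libraries were Fmod (r = 0.86), Sod3 (0.85), Scara3 (0.85), Col6a1 (0.84) and Enpp2 (0.84). Within time points their r was 0.85, 0.83, 0.73, 0.83 and 0.61. Fmod encodes fibromodulin, another small leucine-rich proteoglycan, Sod3 the extracellular superoxide dismutase, Col6a1 a chain of collagen VI and Enpp2 the secreted enzyme autotaxin. Fmod was measured at 2136 ± 1435 normalized counts at ZT1 and 363 ± 270.4 at ZT7, and at 1022 ± 1121 at ZT13 and 1831 ± 1573 at ZT19 (SD, n = 5). The 5 genes were picked for values like those of Ccdc80, so that their low values at ZT7 are no separate result.

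**Figure D4:**
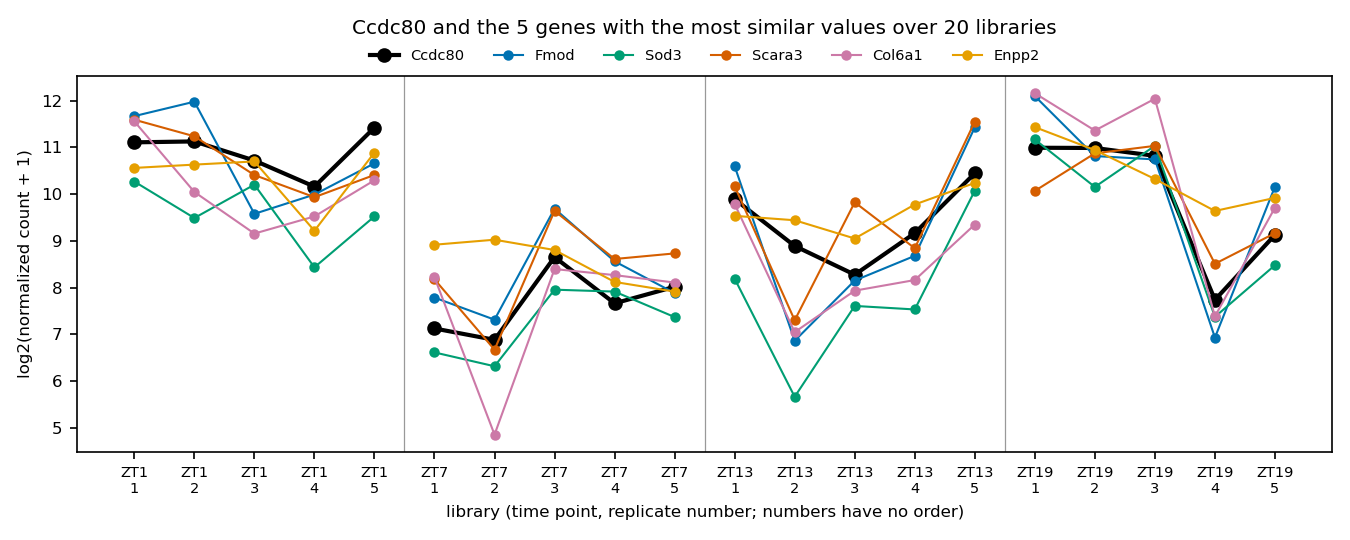
Ccdc80 (black) and the 5 genes with the highest r to it, as log2(normalized count + 1), in each library; the replicate numbers have no order and lines only join the values of a gene within a time point. The 6 genes are low together in replicate 4 of ZT19 and in most ZT7 libraries, which follows from the choice of the 5 by their r over these same libraries.

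Related genes from lists of the same structures were tested in the same way. Of 25 collagens and other fibroblast markers, 1 passed the adjusted threshold of edgeR over the 4 time points and 11 had an unadjusted p under 0.05, where 0.422% and 15.7% of all genes did. The gene that passed was Col6a1 (adjusted p = 0.0456), with 1326 ± 979 normalized counts at ZT1 and 249 ± 125 at ZT7, and at 439 ± 316 at ZT13 and 2482 ± 1963 at ZT19. The median log2 fold change of this list from ZT1 to ZT7 was -0.92, beside 0.05 for all genes, and 8 of the 25 had an unadjusted p under 0.05, all of them lower at ZT7, where 4.97% of all genes had one. For the 9 tested genes described here the same median was -0.47. It was -0.48 for the 11 lymphatic endothelial markers and 0.67 for the 12 keratinocyte markers. Sfrp2 (adjusted p = 0.143) and Gsn (0.215) followed, and Sfrp2 owed its high mean at ZT19 to a library at 3864 normalized counts.

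Of 14 other small leucine-rich proteoglycans, 0 passed the adjusted p in edgeR and 5 had an unadjusted p under 0.05 among the 4 time points, against 15.7% of all genes. Bgn, which encodes biglycan, was at 6792 ± 3035 normalized counts at ZT1 and 2170.2 ± 906 at ZT7, and at 2972 ± 1041 at ZT13 and 2666 ± 1515 at ZT19 (adjusted p = 0.113). Ogn (0.225) and Fmod (0.226) followed, and Ogn was at 577 ± 259 at ZT1 and 91.2 ± 58.2 at ZT7. Between ZT1 and ZT7, 5 of the 14 had such a p, all lower at ZT7, against 4.97% of all genes, and the median of the list was -0.32. Of 17 elastic fibre genes, 0 passed the adjusted p and 3 had an unadjusted p under 0.05, a share near the 15.7% of all genes. The 3 were Eln, which encodes elastin (adjusted p = 0.253), Efemp1 (0.257) and Mfap3 (0.289). Unlike Fbn1, Efemp1 had its highest mean at ZT19, at 266 ± 102, and was at 64.5 ± 36.2 at ZT1.

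Of 26 fibronectin-linked and matricellular genes, 1 passed the adjusted threshold of edgeR over the 4 time points and 6 had an unadjusted p under 0.05, against 15.7% of all genes. The gene that passed was Sparc, a collagen-binding matricellular protein, with 12862 ± 6772 normalized counts at ZT1 and 2956 ± 1182 at ZT7, and at 3246 ± 1390.4 at ZT13 and 7015 ± 3397 at ZT19 (adjusted p = 0.0476). Ecm1 (0.135) and Smoc2 (0.176) did not pass. Of 17 receptors and ligands of the 10 genes, 3 had an unadjusted p under 0.05, also near the share of all genes. Sdc4, a syndecan that binds fibronectin, passed among the 4 time points (adjusted p = 0.0476) and between ZT13 and ZT19 (log2 fold change 1.54, SE 0.30, edgeR's adjusted p = 0.0108), where 0.422% and 0.588% of all genes passed. Sdc4 was at 1886 ± 352 normalized counts at ZT1 and 1369.9 ± 352 at ZT7, and at 835 ± 214 at ZT13 and 2426 ± 616 at ZT19. Sdc1 (0.233) and the integrin chain Itga4 (0.248) did not pass. The calls of Col6a1, Sparc and Sdc4 among the 4 time points were lost in 11, 15 and 18 of the 20 fits that left out a library, with adjusted p-values up to 0.0974, 0.126 and 0.119. That of Sdc4 held only without replicate 2 of ZT7 or replicate 1 of ZT19. With median-of-ratios size factors all 3 calls were lost (0.0831, 0.0703 and 0.0589), as they were with a replicate block, and DESeq2 called all 3. Of the 7 alternatives other than the omission of a single library, 3, 4 and 3 lost the calls of Col6a1, Sparc and Sdc4 among the 4 time points. The call of Sdc4 between ZT13 and ZT19 held in all 20 fits that left out a library but was lost when only these time points were fitted (adjusted p = 0.0653).

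Markers of other cells are given beside these genes. Of the 12 fibroblast markers, which include Pdgfra, Dcn and Lum, 0 passed the adjusted p of edgeR among the 4 time points and 6 had an unadjusted p under 0.05, against 0.422% and 15.7% of all genes. Between ZT1 and ZT7, 0 passed and 5 had such a p, all lower at ZT7, against 0.00521% and 4.97%. Of the 12 keratinocyte markers, 6 passed the adjusted p among the 4 time points and 7 between ZT13 and ZT19, against 0.422% and 0.588%. The Schwann cell gene S100b passed among the 4 time points and the cartilage gene Sox9 between ZT13 and ZT19. In bulk samples, fewer cells of a type and less RNA per cell cannot be told apart. Without Pdgfra, Dcn and Lum, the sum of the other 9 of the 12 fibroblast markers was 2484 to 7744 normalized counts at ZT1, 263 to 1862 at ZT7, 121 to 4250 at ZT13 and 333 to 6181 at ZT19. All libraries of ZT1 were above all libraries of ZT7 in this sum. Its lowest library at ZT13 was replicate 2 and its lowest at ZT19 replicate 4, in which Dcn and Lum were lowest too. At ZT7 the lowest libraries of Dcn and Lum differed, so that no library of this sum can match both there. The fibroblast collagen gene Col3a1 was at 679 to 3389 at ZT1, 113 to 353 at ZT7, 11.7 to 1132 at ZT13 and 6.45 to 3185 at ZT19. Col1a1, a chain of the main dermal collagen, overlapped in every pair, at 155 to 512, 29.7 to 418, 8.48 to 688 and 24.9 to 714 in the same order. Of the defining markers Twist2 was at 0 in all 5 libraries of ZT19, which allows up to 0.0833, 0.105, 0.199, 0.278 and 0.135 RPM, and these libraries detected fewer genes than those of ZT1. Cartilage genes, which the ear also holds, summed to 1702 to 4394 at ZT1, 608 to 1542 at ZT7, 286 to 1747 at ZT13 and 952 to 3830 at ZT19 for 5 of the 6 listed genes, and ZT1 did not overlap with ZT7 in this sum either. The part of these cells in the values of the 10 genes was not tested.

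**Figure D5:**
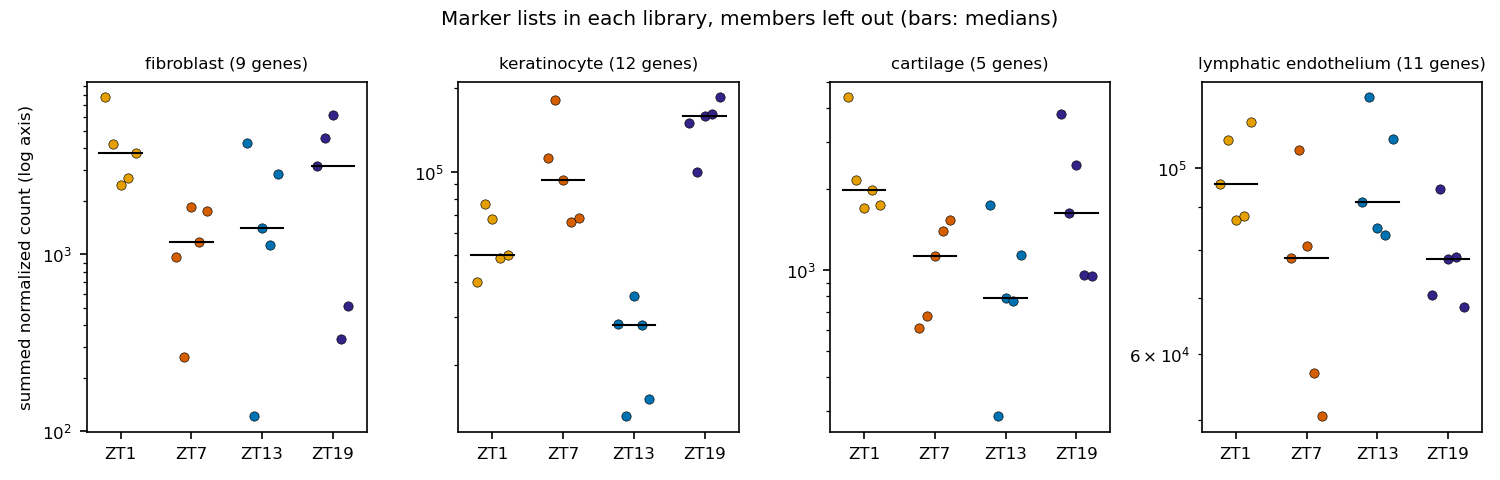
Summed normalized counts of 4 marker lists in each library, on log axes that differ between panels, with the genes described here left out; bars are medians (n = 5). The fibroblast list spans 2484 to 7744 at ZT1 and 263 to 1862 at ZT7, and the keratinocyte list is lowest at ZT13 and highest at ZT19 by median.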

How the data were processed

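RNA was measured in 20 libraries of sorted lymphatic endothelial cells, 5 at each of 4 time points, made with SMART-Seq v4 and Nextera XT. The deposited values are read counts per gene, which the authors made with STAR on mm10 and HTSeq-count, not normalized; the annotation and strand setting are not given in the sources used here. The counts were fitted for all genes in edgeR 4.0.16 (R 4.3.3) with its quasi-likelihood test, TMM factors, the default filter on low counts by time point, and Benjamini-Hochberg adjustment over all genes tested, with a threshold of 0.05. Normalized counts are counts divided by the scaled library size, and correlations used log2(normalized count + 1). DESeq2 1.42.0, other size factors, other filters, a replicate block and the omission of each library were tried. The edgeR tests among the 4 time points and of a single pair were run on simulated data, with a smaller common spread than these data have. DESeq2, the rhythm test and the other alternatives were not run on simulated data. Rows that name no gene stayed out, and of the reads on genes and on no gene together, 12.7% to 81.6% were on genes. All 10 genes were named, and from each list those past the threshold, or up to 3 with the smallest p among the 4 time points. The members and lists were chosen with earlier results of these data known.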

Additional observations from a re-analysis of the deposited data

Results flagged for a closer look

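Of the 40 groups of 5 libraries formed by the 10 genes and 4 time points, 2 held a library far from the others of its group on the log2 scale. Mfap5 in replicate 5 of ZT19 was above its group with 8.84 normalized counts from 16 reads, where the other 4 libraries had none, and its gap was 1.0 of the whole range of the group. Pdgfra in replicate 2 of ZT13 was below its group with 4.24 normalized counts from 4 reads, and its gap was 0.789 of the range. Chance gives such a library in about 5% of groups, which is 2 of 40, where values have no ties. The Mfap5 group, with no read in 4 libraries, could only give a gap of the whole range, so that this rate does not apply to it.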

How the results depend on the processing

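The count of the 9 tested genes past the adjusted threshold among the 4 time points was 0 in the main analysis, 2 with DESeq2, and 1 with median-of-ratios size factors, with no filter on low counts and with a minimum of 10 counts in 10 libraries. It was 2 without the ZT7 and ZT13 libraries with most reads on genes, an alternative added after seeing the data. Between ZT1 and ZT19 the count was 2 with DESeq2, and 1 with median-of-ratios size factors, library size alone, the stricter filter and those libraries left out. DESeq2 gave 1 between ZT7 and ZT19 and 1 between ZT13 and ZT19. The calls over all genes moved as well. Among the 4 time points they went from 81 to 569 with DESeq2, 64 with median-of-ratios size factors, 100 with no filter, 117 with the stricter filter and 843 without those libraries. Between ZT1 and ZT19 they went from 3 to 1987 with DESeq2, 24 with median-of-ratios size factors, 96 with library size alone, 70 with the stricter filter and 1845 without those libraries. Leaving out single libraries gave 0 to 1 among the 4 time points and between ZT1 and ZT19, and 0 in the other pairs and for the rhythm. Between ZT1 and ZT19 the gene was Fbn1, without replicate 5 of ZT13 or replicate 4 of ZT19. These calls were of Fbn1 or Npnt, and the cause of their gain was not tested. With median-of-ratios size factors, 8 pairs of genes passed by correlation in place of 3, whether adjusted over 45 pairs or over the 36 without Ccdc80, and by Spearman's rho 7 and 5 did, families and coefficient being alternatives added after seeing the data. Same-numbered libraries were not shown to be paired, since 6 of 20 libraries correlated best with their own number. Between ZT1 and ZT13 the 5 same-numbered pairs correlated at 0.064 to 0.32 (mean 0.17). In the other pairs of time points the mean correlations were -0.042 to 0.068. With a replicate block the count of the 9 was 0 in each comparison, with an adjusted p of 0.134 for Fbn1 among the 4 time points, and Col6a1, Sparc and Sdc4 were at 0.117, 0.151 and 0.117. Of the 60 fold changes of the 10 genes, 42 kept one sign under every alternative, and 21 of the 22 of at least 1 on the log2 scale did. Mfap5, Fbln1 and Pdgfra had no read in 6, 1 and 1 of the 20 libraries, among them the 2 deepest, which also had the fewest genes detected. Depth sets their upper limits, and with only 210 reads of Mfap5 its fold changes rest on single libraries.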

Other observations

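Further marker lists gave small sums. The 8 pericyte and smooth muscle genes summed to 1295 to 2021 normalized counts at ZT1, 503 to 1734 at ZT7, 329.8 to 1839 at ZT13 and 356 to 1119 at ZT19. The 4 Schwann cell genes summed to 231 to 2450 at ZT1 and 23.4 to 283 at ZT7, 96.1 to 320 at ZT13 and 72.7 to 436 at ZT19. The 6 leukocyte genes reached at most 541 and the 4 adipocyte genes at most 468, both at ZT1.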
